A study of Mus musculus with 20 samples.

Results

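The mitochondrially encoded respiratory transcripts are the messages that the cell reads from its own small mitochondrial genome and that specify core subunits of the respiratory chain. The 8 rows described here were taken by name from a deposited table of 34291 rows: ND1, ND2, ND3, ND4, ND5 and ND6 of complex I, COX1 of complex IV and CYTB of complex III. The hearts came from C57BL/6 mice, 10 fed a diet with 14 ppm rapamycin and 10 fed a control diet. The mice were 24 months old when the diets started and 27 months old when the hearts were removed, after 3 months of feeding. Rapamycin inhibits mTOR, a kinase that controls growth and protein synthesis. Whole frozen hearts were powdered and polyadenylated RNA was sequenced, and libraries are called by diet and number as labelled. The labels name no sex, cage or batch, and the groups were compared to ask how late-life rapamycin alters the old heart.

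Mitochondrial DNA is transcribed from both strands into long precursors, which are cut at the transfer RNAs that lie between the genes and then polyadenylated. Its protein genes all serve oxidative phosphorylation, while the other subunits of the same complexes are made from nuclear genes, so that each of complexes I, III, IV and V mixes products of both genomes. Heart muscle is among the tissues richest in mitochondria. ND6 lies on the opposite strand from the other protein genes, and its message is known from human cells to lack a long poly(A) tail, which bears on libraries selected by oligo-dT. Since the sources used here state no strand setting for the counting, ND6 reads and antisense reads of its neighbour ND5 cannot be told apart.

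Of the 37 mitochondrial rows in the table, 5 protein genes were listed at 0 in all 20 libraries, as were all 22 transfer RNAs. The 5 protein genes were COX2 and COX3 of complex IV, ATP6 and ATP8 of the ATP synthase, and ND4L of complex I. At the depth of these libraries a count of 0 allows at most 4.26e-05% of the counts of a library (3 counts of its total, counting error only). ND3 was counted 15 to 37 times with rapamycin and 20 to 63 times in controls, whereas the least abundant of the other members, ND6, had 47586 to 80544 and 33809 to 61119 counts. Among the protein genes, in the order of the mitochondrial genome, these rows are neighbours: COX2, ATP8, ATP6, COX3, ND3 and ND4L follow each other between COX1 and ND4. The design text of the series says that only uniquely placed reads were used, and mouse nuclear chromosomes hold pseudogene copies of mitochondrial DNA.

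The nuclear copies annotated in GENCODE vM21 (GRCm38, a later build than the one the authors mapped to) were compared with each gene in windows of 50 bases, the read length of the libraries. The reads came in pairs, and a window takes no account of the mate, so a copied window need not make its read pair ambiguous. An exact nuclear match was held by 100% of the windows of COX2, 99.9% of COX3, 99.5% of ATP6, 98.8% of ND4L and 98.0% of ND3. It was held by 62.2% of the windows of ND4 and 51.1% of COX1, and by 8.19% of ND2 and 7.61% of ND5. No window of ND1, ND6 or CYTB had one. ATP8 had none either, and yet was listed at 0. Counting windows within 2 mismatches of a copy, the number that the mapping allowed, the share was 94.8% for COX1, 62.2% for ND4 and 51.1% for ND6. It was 37.7% for ND2, 32.2% for ND5, 23.3% for CYTB and 0% for ND1 and ATP8. For COX2, COX3, ATP6, ND3 and ND4L it ran from 98.8% (ND4L) to 100% (COX2). Among all 13 protein genes, COX2, COX3, ATP6, ND4L and ND3 had the highest shares of exactly copied windows and were at 0 or near 0. ATP8, with no such window, was at 0 as well. Every protein row between COX1 and ND4 was at 0 or near 0, so that stretch holds no counted row to compare them with. The copies themselves differed in the table. The row of Gm10925, a pseudogene identical to ATP6 over 678 bases, held 27073 to 37100 counts with rapamycin and 20569 to 36335 in controls, though ATP6 was at 0. That of Gm10222, the copy of ND4L, was at 0 in every library. The nuclear genome outside annotated transcripts and the build of the authors were not analysed here, and whether unique mapping set these rows to 0 was not tested.

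Stretches of 100 bases are shown for 3 genes to let the near-identical and the more distant copies be seen beside the counts. Capitals mark the bases that differ, each line is written in the direction of the gene, and positions are counted from 1 at the first base of the gene. ND3 and its copy Gm28438 on chromosome 1 differed once in 345 aligned bases, at T3C, and ND3 was all but uncounted.

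ND3: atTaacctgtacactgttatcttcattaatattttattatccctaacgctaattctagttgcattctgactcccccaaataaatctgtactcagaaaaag
Gm28438: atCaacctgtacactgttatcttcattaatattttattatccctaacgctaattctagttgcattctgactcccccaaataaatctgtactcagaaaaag

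The last 483 bases of COX1 and the chromosome 1 copy Gm29216 likewise differed once, at A1066T, but that stretch starts at base 1063 of COX1, and COX1 was the most counted row of the table. A copy of the whole gene, Gm13340 on chromosome 2, was 97.6% identical.

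COX1: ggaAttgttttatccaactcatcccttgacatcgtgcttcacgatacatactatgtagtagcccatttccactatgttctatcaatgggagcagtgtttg
Gm29216: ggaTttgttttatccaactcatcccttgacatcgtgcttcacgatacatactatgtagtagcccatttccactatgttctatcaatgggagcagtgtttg

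ND5 and its most identical copy, Gm4076 on chromosome 13, were 95.2% identical over 954 bases, and the middle of their alignment held 3 differences in 100 bases (A1149G, G1164A and G1216A). The row of that pseudogene had 1 to 10 counts with rapamycin and 2 to 7 in controls, against 213834 to 322608 and 134089 to 293288 counts of ND5.

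ND5: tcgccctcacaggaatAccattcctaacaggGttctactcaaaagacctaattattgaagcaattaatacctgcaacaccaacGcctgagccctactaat
Gm4076: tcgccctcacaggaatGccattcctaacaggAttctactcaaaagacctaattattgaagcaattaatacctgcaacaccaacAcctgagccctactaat

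**Figure D1:**
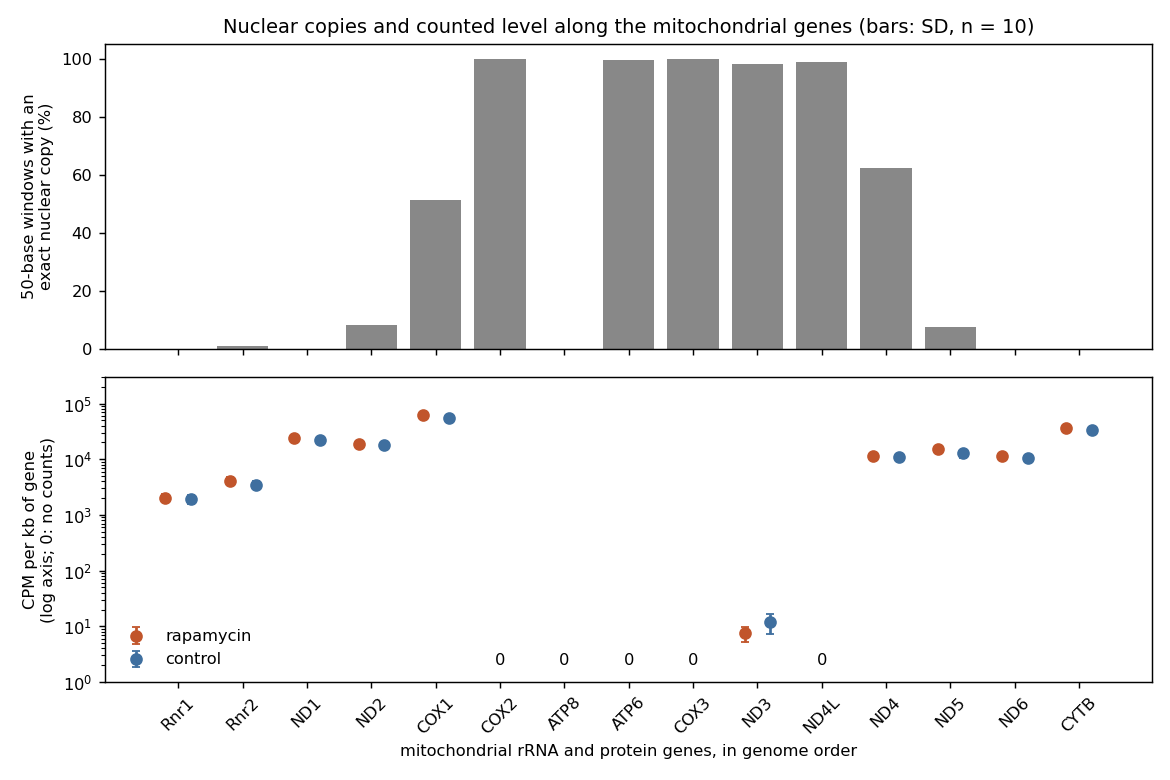
Nuclear copies and counted level for the 2 ribosomal RNA and 13 protein genes of the mitochondrial genome, in genome order. The upper bars give the percentage of 50-base windows with an exact nuclear copy, and the lower points give CPM per kb on a log axis (mean and SD, n = 10 per group, rapamycin left), where the 2 means of ND3 are 7.51 and 12.1 and the lowest mean of the other counted protein genes is 10690.

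The summed share of all counts held by the 8 transcripts, nearly all of it by the 7 other than ND3, averaged 23.0 ± 2.01% with rapamycin and 20.8 ± 2.20% in controls (SD, n = 10 each), a difference of 2.23 percentage points and a ratio of 1.11. With rapamycin the share ran from 20.3% through a median of 22.9% to 27.0%, and in controls from 17.5% through 20.5% to 25.4%. The groups overlapped: 9 of 10 rapamycin libraries lay above the control median, and 1, rapamycin 15, lay above every control. Counting error was small beside this spread, since the 95% Wilson interval of the share in rapamycin 15, for example, was 27.01% to 27.07%. Control 10 had the highest control share and control 19 the lowest, with a Wilson interval of 17.45% to 17.51%. As a sum over chosen genes the share was given no test.

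**Figure D2:**
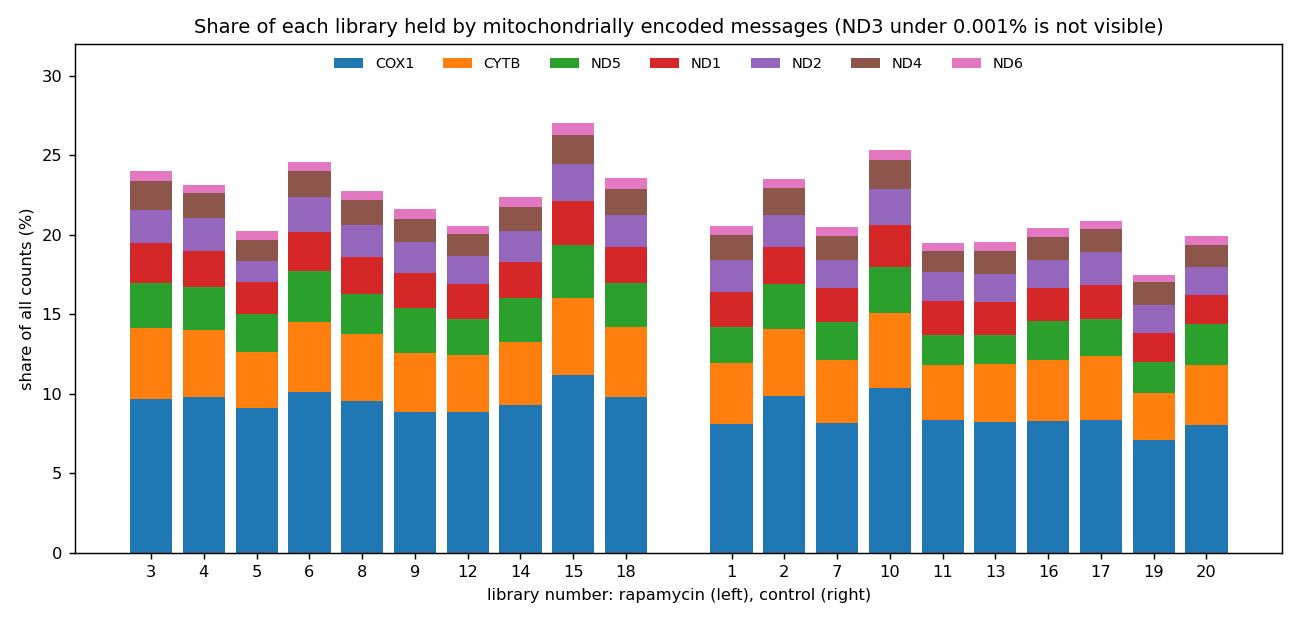
Share of all counts (%) held by the mitochondrially encoded messages in each of the 20 libraries, rapamycin left and control right, stacked by gene. COX1 is the largest layer in every bar, and the total runs from 17.5% in control 19 to 27.0% in rapamycin 15.

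Control 19 stands apart from the other libraries in its tissue makeup. Its 5 lung markers summed to 28090 CPM, against a median of 1.68 over all 20 libraries, and its 12 cardiomyocyte markers to 19630 CPM, against 47110 to 59580 with rapamycin and up to 59130 in controls. All 12 cardiomyocyte markers were counted and passed the filter on low counts, so the heart label had its defining genes. Lung or liver markers exceeded 10 times their median in 7 libraries in all, 3 with rapamycin and 4 in controls. The libraries held 8525162 to 12458309 counts with rapamycin and 7039514 to 10594335 in controls. In whole hearts, more cardiomyocytes and more RNA per cardiomyocyte cannot be told apart.

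Within the pool the order of mean levels was the same in both groups except for ND4 and ND6. Per kilobase of gene, without scaling factors, COX1, the catalytic core of cytochrome oxidase, averaged 62240 ± 4464 CPM with rapamycin and 54940 ± 6072 CPM in controls (SD, n = 10 each). CYTB, the mitochondrially encoded subunit of the cytochrome bc1 complex, averaged 36120 ± 3693 CPM per kb with rapamycin and 33510 ± 3970 in controls. The membrane-arm subunits of complex I followed: ND1 at 24370 and 22440, ND2 at 18850 and 18130, ND5 at 15150 and 12830 CPM per kb with rapamycin and in controls. COX1 exceeded CYTB, CYTB exceeded ND1 and ND1 exceeded ND2 in all 20 libraries. ND2 exceeded ND5 in 19 libraries, and ND5 exceeded ND4 in 18. ND4 and ND6 did not differ beyond their spread: ND4, at 11490 ± 1279 and 10940 ± 1063 CPM per kb, was the higher in 12 of 20 libraries, and ND6 stood at 11630 ± 1517 and 10690 ± 1083.

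The place of ND4 in that order depends on how its length is counted. Per kilobase of window starts with no exact nuclear copy, ND4 averaged 31550 ± 3511 CPM with rapamycin and 30040 ± 2918 CPM in controls, and was above ND1 in all 20 libraries. On the same scale COX1 averaged 131500 ± 9436 CPM with rapamycin and 116100 ± 12830 CPM in controls. ND3, with 6 such windows, stayed lowest at 435.8 ± 128.1 and 704.4 ± 280.4 CPM. This scale, too, rests on single windows and takes no account of read pairs.

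Against the control diet, none of the 8 members passed at an adjusted p under 0.05, while 3.36% of the 13940 genes tested did, 0.689% with higher and 2.68% with lower levels (edgeR quasi-likelihood test, Benjamini-Hochberg over all genes). All 8 members passed the filter on low counts. At an unadjusted p under 0.05 the count was 5 of 8, against 21.7% of all genes tested. Of these, 4 had values above 0 (ND1, ND5, ND6 and COX1), and ND3 had a value below 0, where 8.21% and 13.5% of all genes tested did so above and below 0. The groups overlapped for every member, as they did for all but 0.0717% of genes. The median log2 fold change of the members was 0.23, against -0.01 for all genes tested, and 7 of 8 were above 0, as were 47.5% of all genes. The members share libraries, and those other than ND6 also share a strand and its precursors, so their common direction is not 8 separate observations.

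ND5, a proton-pumping subunit at the far end of the membrane arm of complex I, had the smallest p of the members. Its normalised CPM, scaled by TMM, ran from 22860 through a median of 29540 to 36320 with rapamycin, and from 16270 through 22710 to 29750 in controls. Every rapamycin library lay above the control median and 4 lay above every control. The fold was 1.28, with a 95% interval of 1.07 to 1.53 (log2 0.355 ± 0.125, SE, adjusted p = 0.106 by edgeR, rank 1245 of all genes by p).

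COX1 ran from 85570 through a median of 101400 to 120200 normalised CPM with rapamycin, and from 60710 through 79100 to 104900 in controls. Here too all 10 rapamycin libraries were above the control median, and 4 were above every control. Its fold was 1.23, with a 95% interval of 1.03 to 1.46 (log2 0.29 ± 0.12, SE, adjusted p = 0.170 by edgeR). COX1 and ND5 are the members that the authors' deposited table of 700 genes lists, with their CPM but with no fold, p or stated criterion. By DESeq2, run as an alternative on the same counts, 1018 of 23781 genes passed, 327 of them with higher levels. Of the members, COX1 (adjusted p = 0.0136 by DESeq2) and ND5 (0.0217) passed, and no other did. Under limma-voom neither passed (adjusted p = 0.134 for COX1 and 0.103 for ND5). Over all alternatives other than DESeq2, the adjusted p of ND5 did not go below 0.0592.

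ND1, which lies at the join of the membrane arm and the matrix arm of complex I, averaged 24470 ± 2944 normalised CPM with rapamycin and 20820 ± 3115 in controls (SD, n = 10 each). Its fold was 1.18, with an interval of 1.01 to 1.37. ND6, a membrane-arm subunit coded on the opposite strand, averaged 6320 ± 923.2 and 5370 ± 722.4 normalised CPM with the same fold of 1.18. For both, 9 of 10 rapamycin libraries lay above the control median (adjusted p = 0.214 and 0.168 by edgeR). ND6 counts amounted to 0.219 ± 0.0203 of ND5 counts with rapamycin and 0.240 ± 0.0264 in controls, which overlapped.

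The other 3 abundant members had intervals that reach below a fold of 1. CYTB averaged 43370 ± 5840 normalised CPM with rapamycin and 37180 ± 5964 in controls, with a fold of 1.17 (0.980 to 1.39). The proton-pumping subunits ND2 and ND4 had folds of 1.13 (0.951 to 1.34) and 1.14 (0.981 to 1.32). ND2 spanned 12520 to 24560 normalised CPM with rapamycin and 14810 to 22540 in controls, so that the lowest library of all, rapamycin 5, was a treated one. Equality of the diets is not shown by these intervals, which reach upper folds of 1.32 to 1.39.

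ND3, a small subunit that helps switch complex I between its active and resting states, had a value in the other direction, at a very low level. It ran from 1.13 through a median of 2.98 to 3.90 normalised CPM with rapamycin, and from 2.13 through 3.98 to 6.49 in controls. No rapamycin library lay above the control median and 2 lay below every control. The log2 fold change was -0.57 ± 0.24 (SE, adjusted p = 0.168 by edgeR), a fold of 0.672 with an interval of 0.475 to 0.949. Of the controls, 5 lay above the highest rapamycin library (1, 19, 11, 17 and 13, at 4.84 to 6.49 normalised CPM), and the other 5 lay at 2.13 to 3.12. Across libraries, after removal of group means, ND3 had a Pearson r of 0.15 with the mean log2 CPM of the other members, whereas each other member had r of 0.82 to 0.96 with the mean of the rest, ND3 left out (description only, 20 libraries that share depth and scaling).

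**Figure D3:**
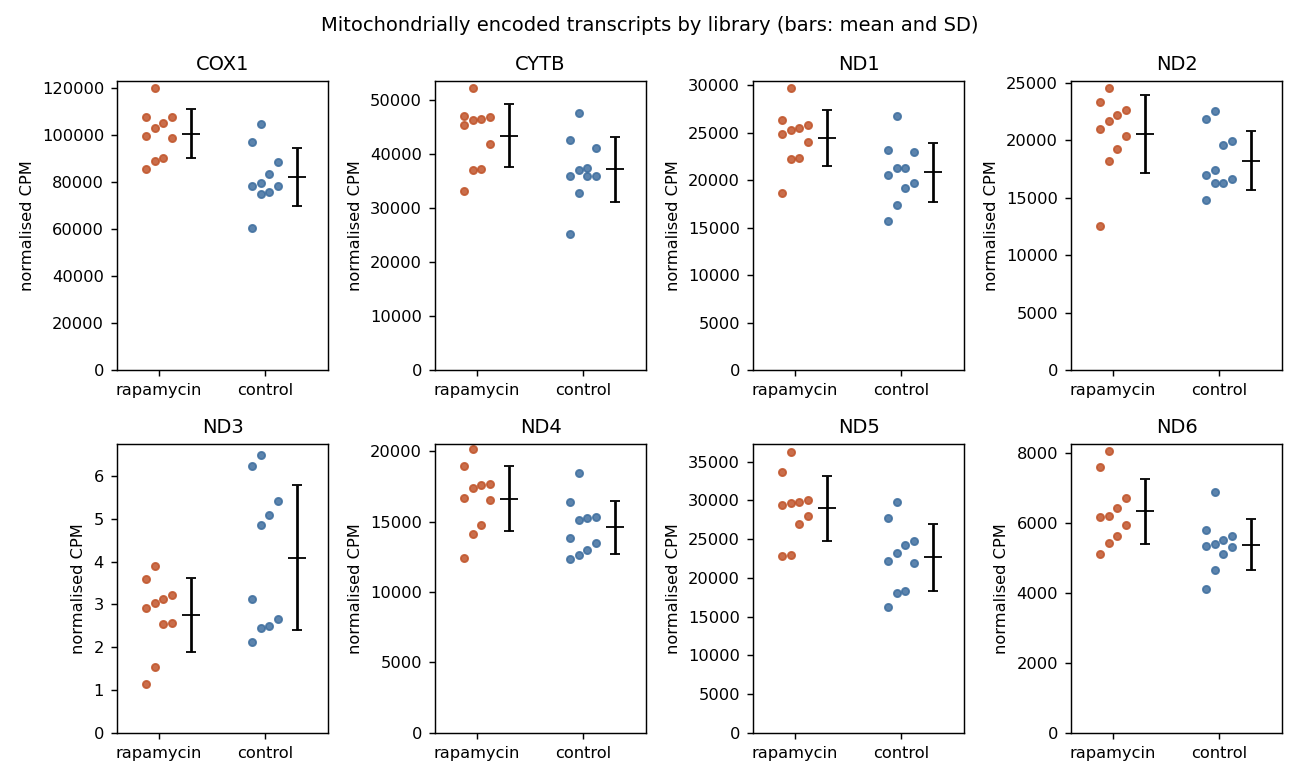
Normalised CPM of each member in each library (points), with the mean and SD of the 10 libraries per group (bars), rapamycin left and control right in each panel. The groups overlap in all 8 panels, the rapamycin mean is the higher one in every panel but that of ND3, and ND3 lies under 7 CPM.

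The same few libraries set the ends of the ranges. Among the 7 abundant members rapamycin 15 was the highest rapamycin library for 7 and rapamycin 5 the lowest for 6, with rapamycin 12 lowest for ND6. Among controls, control 10 was the highest for 7 and control 19 the lowest for 7. When each of the 20 libraries was left out in turn the median of the members stayed between 0.19 and 0.27 and no member passed in any of the 20 fits. Without control 19 it was 0.19, with ND5 at 0.32 (adjusted p = 0.0906 by edgeR) and COX1 at 0.26 (0.0929). Without the 7 libraries with lung or liver markers, which left 7 with rapamycin and 6 controls, the median was 0.11, ND5 stood at 0.25 and COX1 at 0.16, and ND3 at -0.69 (adjusted p = 0.519, 0.592 and 0.392 by edgeR). In that smaller fit 13 genes in all passed, and the nuclear list of oxidative phosphorylation described next had a median of 0.09.

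The makeup of the pool overlapped between diets for every member. COX1 supplied 41.9 ± 1.29% of the members' counts with rapamycin and 40.9 ± 1.15% in controls (SD, n = 10 each), and ND5 ran from 10.93% to 12.95% with rapamycin and from 9.24% to 12.91% in controls. CYTB had medians of 17.91% with rapamycin and 18.64% in controls. ND4 averaged 6.88 ± 0.292% with rapamycin and 7.28 ± 0.458% in controls, and ND1 averaged 10.1 ± 0.264% and 10.4 ± 0.499%. For CYTB, ND4 and ND1 alike, 1 of 10 rapamycin libraries lay above the control median, and for COX1 9 did. ND2 averaged 8.49 ± 0.715% with rapamycin and 9.09 ± 0.566% in controls, with 4 of 10 rapamycin libraries above the control median. ND6 averaged 2.63 ± 0.26% and 2.68 ± 0.124%. ND3 held 0.00113 ± 0.000327% with rapamycin and 0.0021 ± 0.000959% in controls, a ratio of 0.540, and no rapamycin library lay above the control median. These shares sum to a whole and overlap between groups, and the differences were not tested.

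The ribosomal RNAs of the mitochondrion, which come from the first part of the transcripts that carry the members other than ND6, had values above 0 as well. Rnr2, the large ribosomal RNA, averaged 6775 ± 1280 normalised CPM with rapamycin and 5381 ± 1098 in controls, a log2 fold change of 0.33 ± 0.13 (SE, adjusted p = 0.144 by edgeR). Rnr1, the small one, averaged 2053 ± 372.6 and 1771 ± 407.7 normalised CPM, at 0.21 ± 0.13 (adjusted p = 0.351). Without the 7 libraries with lung or liver markers Rnr1 stood at -0.04. Both rows measure what passed oligo-dT selection, not the amount of ribosomal RNA.

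The nuclear genes for the same complexes had values of similar size. Of 78 nuclear genes of oxidative phosphorylation, all tested, none passed, 19 had an unadjusted p under 0.05, and 76 were above 0. These are 24.4% and 97.4% of the list, against 21.7% and 47.5% of all genes tested, of which 3.36% passed. The median log2 fold change of the list was 0.20, against 0.23 for the members and -0.01 for all genes. Without control 19 that median was 0.13. By complex the medians were 0.18 for the 37 genes of complex I, 0.25 for the 4 of complex II, 0.20 for the 9 of complex III, 0.16 for the 13 of complex IV and 0.21 for the 15 of complex V. Complex II, succinate dehydrogenase, has no mitochondrially encoded subunit. Its flavoprotein subunit Sdha averaged 1525 and 1247 normalised CPM with rapamycin and in controls (log2 0.29 ± 0.11, SE, adjusted p = 0.131 by edgeR), and its membrane anchor Sdhc stood at 0.33 ± 0.13 (0.142). The complex I accessory subunits Ndufa1 (0.26 ± 0.08, adjusted p = 0.0782) and Ndufa13 (0.265 ± 0.09, 0.0947) had the smallest p of the whole list. For the other complexes the values nearest to passing belonged to Uqcrc2 (0.20 ± 0.09) and Uqcr11 (0.23 ± 0.11) of complex III, Cox6c (0.22 ± 0.08) and Cox4i1 (0.26 ± 0.13) of complex IV, and Atp5f1 (0.20 ± 0.08) and Atp5e (0.29 ± 0.12) of complex V, at adjusted p of 0.127 to 0.259 by edgeR. The values below 0 were those of Cox6a1 (-0.04) and Cox8a (-0.09).

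The members were also read against those nuclear genes. They held 6.39 ± 0.604 counts for each count of the nuclear list with rapamycin and 6.27 ± 0.904 in controls (SD, n = 10 each), a difference of 0.115 and a ratio of 1.02. The medians were 6.24 with rapamycin and 5.90 in controls, and 9 of 10 rapamycin libraries lay above the control median. Without control 19, a step added after the data were seen, the mean of the other 9 controls was 6.06 ± 0.643 and the difference 0.327. The groups overlapped and the difference was not tested. With library sizes set by the nuclear list, the members' median log2 fold change was -0.005, with ND5 at 0.12, COX1 at 0.06 and ND2 at -0.07. On that scale the median of all genes moved by -0.25, to -0.26. ND3 passed there (-0.84, adjusted p = 0.0487 by edgeR), and no other member did. With those library sizes 743 of all 13940 genes passed, 733 of them with lower levels. The highest ratio, 8.18, belonged to control 19, whose nuclear list took 2.14% of counts, against 3.20% to 3.84% with rapamycin and 3.29% to 3.69% in the other controls.

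**Figure D4:**
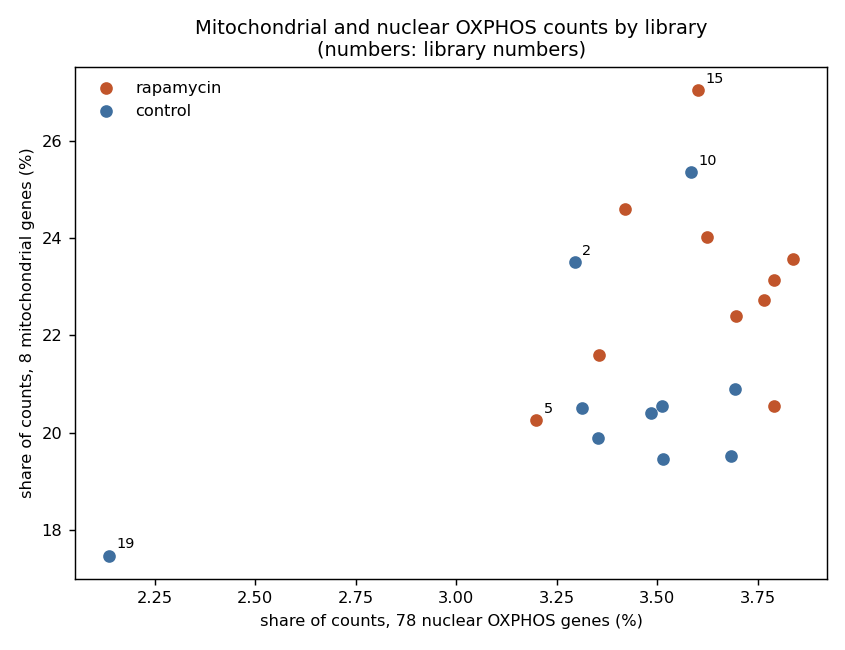
Share of counts (%) of the 8 mitochondrial genes (vertical axis) against that of the 78 nuclear genes of oxidative phosphorylation (horizontal axis), 1 point per library, with some library numbers. Control 19 lies alone at 2.14% on the horizontal axis, and rapamycin 15 and control 10 are the highest on the vertical axis.

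The cardiomyocyte markers had values in the same direction as the members. None of the 12 cardiomyocyte markers passed, and their median log2 fold change was 0.28, with a mean level of 11.6 ± 0.144 log2 CPM with rapamycin and 11.3 ± 0.473 in controls (SD, n = 10 each), a difference of 0.34. Control 19 stood at 9.99, and without it the difference was 0.20. Their summed level ran from 47110 to 59580 CPM with rapamycin and from 19630 to 59130 CPM in controls, with no marker at 0 throughout. In a fit with that level as a covariate the members' median was 0.12, with ND5 at 0.26 (adjusted p = 0.306 by edgeR) and COX1 at 0.18 (0.325), and the nuclear list's median was -0.002. The part of cardiomyocyte content in the values was not tested further. Of 6 macrophage markers 4 fell at an adjusted p under 0.05 by edgeR, against 2.68% of all genes tested, with a summed level of 109.8 to 236.8 CPM with rapamycin and 151.1 to 387.9 CPM in controls.

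The factors that copy, transcribe and process mitochondrial RNA gave no called gene. Of 37 such nuclear genes 36 were tested, none passed, against 3.36% of all genes, and 24 were above 0 (66.7%, against 47.5% of all genes). An unadjusted p under 0.05 was reached by 6 of them, 16.7% against 21.7% of all genes. The median log2 fold change was 0.06, against -0.01 for all genes. Among 16 genes of transcription and replication the smallest p belonged to Tfb2m, the transcription factor that opens mitochondrial promoters, which averaged 57.6 and 50.2 normalised CPM with rapamycin and in controls (0.20 ± 0.06, SE, adjusted p = 0.0843 by edgeR). Next came 8430406I07Rik, the older symbol of the exonuclease Mgme1 (0.30 ± 0.10), Peo1, the replicative helicase (0.24 ± 0.11), and Mterf, a transcription termination factor (-0.29 ± 0.13). Tfam, which packages the mitochondrial genome, stood at 0.02 ± 0.06, and the RNA polymerase Polrmt at 0.09 ± 0.11, 2 genes named here after their values were seen. In the list of RNA processing and stability 20 of 21 genes were tested. Pde12, which removes poly(A) tails in mitochondria, had a value of -0.19 ± 0.07 (adjusted p = 0.120 by edgeR). Ptcd1 stood at 0.19 ± 0.07, Lrpprc, which stabilises mitochondrial messages, at 0.21 ± 0.10, and the RNA-binding Grsf1 at 0.14 ± 0.09.

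**Figure D5:**
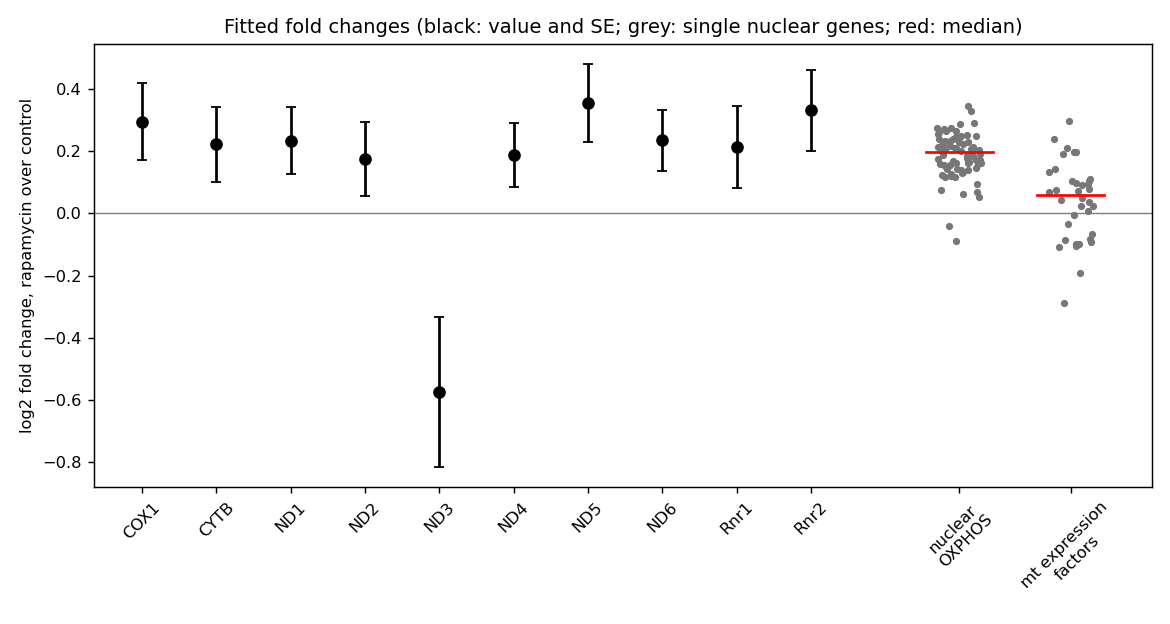
Log2 fold change, rapamycin over control, of the 8 members and of the mitochondrial ribosomal RNAs (black, value and SE), beside the single genes of 2 nuclear lists (grey) with their medians (red). The 7 abundant members lie between 0.17 (ND2) and 0.355 (ND5), ND3 lies at -0.57, and the medians of the nuclear lists are 0.20 and 0.06.

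By pattern across libraries, the rows most like the members came partly from the same DNA. Likeness was the Pearson r of log2 CPM with the mean of the members over 20 libraries after removal of group means, given as a description. The highest was 0.934 for LOC100503946 (Spearman rho 0.950), which RefSeq (GRCm38.p6) lists by its gene number as Gm10925, a pseudogene on chromosome 1 identical to ATP6 over 678 bases. That row held 27073 to 37100 counts with rapamycin and 20569 to 36335 in controls, in the same libraries in which ATP6 itself was listed at 0. Its log2 fold change was 0.17 ± 0.09 (SE, adjusted p = 0.272 by edgeR). Whether its reads came from the mitochondrial gene was not tested. The pseudogene copy of ND4L, Gm10222, was at 0 in every library. Next were LOC100503984 (r 0.932), Ghitm, an inner mitochondrial membrane protein (0.906), Rnr2 (0.888), the lipid carrier Scp2 (0.874) and 2310002L09Rik (0.865), none of which passed. Without control 19 these r lay between 0.847 and 0.926, so they do not rest on that library.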

How the data were processed

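Oligo-dT selected RNA from powdered whole hearts was read as 50-base pairs, per the labels and the design text. Mapping, per the design text, was to unique positions of MGSCv37 (C57BL/6J) and allowed 2 mismatches. No aligner or counter is named, and the submitters' processing notes list edgeR with no role. The authors deposited raw read counts per gene symbol and a second table of 700 genes in CPM, which for COX1 and ND5 match the deposited counts scaled to the column total. Columns were matched to samples by name, the column "Rap_S4" being taken as that of the library titled rapamycin 4.

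Counts were tested with R 4.3.3 and edgeR 4.0.16 (default expression filter, TMM, quasi-likelihood F-test, Benjamini-Hochberg over 13940 genes, threshold 0.05). Standard errors are the fold change divided by the square root of F, and a prior count of 2 was used for log2 CPM. Normalised CPM are relative to the TMM library size. Alternatives used DESeq2 1.42.0 and limma 3.58.1. Nuclear copies were found with BLAST 2.17.0 in GENCODE vM21 transcripts at an identity of at least 85%, and windows were matched on both strands. Older symbols were matched through RefSeq synonyms. Every pair of libraries within a group differed by more than counting noise (chi-square per degree of freedom of at least 5.56, 90 pairs). The scripts were tested on simulated counts. The labels pair no libraries and give no batch. The members and lists were chosen with earlier results of these data known. The genes named follow a rule: the members and other mitochondrial rows, the 2 genes of smallest p in each nuclear complex, the 4 of smallest p in each list of mitochondrial expression factors, and the 6 rows most like the members.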

Additional observations from a re-analysis of the deposited data

Results flagged for a closer look

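Of 40 groups of 10 libraries checked for a library far from the rest, 3 had one. Chance gives about 1 in 20 for a single group. These groups are not independent, since levels and shares come from the same counts and the shares sum to a whole, so their number cannot be set against that rate. ND2 in rapamycin 5 was flagged both by level and by share. In rapamycin 5 ND2 stood at 12520 normalised CPM, against 18210 in the next lowest rapamycin library, and made up 6.56% of the members' counts, against 8.30% in the next lowest. In rapamycin 3 ND4 made up 7.63% of the members' counts, against 6.97% in the next highest rapamycin library.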

How the results depend on the processing

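No member passed under 27 of 29 alternatives. By DESeq2 the number was 2 (COX1 and ND5), the number of nuclear oxidative phosphorylation genes called higher was 2 (Ndufa1 and Ndufa13), and that of mitochondrial expression factors called higher was 1 (Tfb2m). By edgeR, single calls among the genes named here also appeared when 1 library was left out. They were Ndufa1 (adjusted p = 0.0425) and Ndufa13 (0.0399) without rapamycin 5, Tfb2m (0.0452) without control 10 and Ptcd1 (0.0454) without control 17, each in 1 of 20 fits. Of these fits, calls over the whole nuclear lists were counted only in that without control 19, where there were none. With library sizes from the nuclear oxidative phosphorylation genes 1 member was called (ND3), and ND1 (-0.003), ND2 (-0.074), ND4 (-0.061), ND6 (0) and CYTB (-0.008) turned from values above 0. With library totals and no scaling factor 5 mitochondrial expression factors were called lower, Scp2 turned to -0.018, and the median of all genes moved by -0.12, so that the members' median of 0.11 stood 0.24 above it, as in the reported fit (0.24). Without the libraries with lung or liver markers Rnr1 turned to -0.04. The cause of these shifts was not tested. The log2 ratio of the members' share was 0.15 with all libraries and 0.12 to 0.18 when 1 library was left out, and 0.07 without the 7 libraries with lung or liver markers. Over other denominators it was 0.27 (TMM library sizes), 0.19 (nuclear rows) and 0.03 (nuclear oxidative phosphorylation genes). Genes called in the whole table numbered 469, and between 165 and 791 when 1 library was left out. They numbered 273 by limma-voom, 335 without a filter, 1018 by DESeq2 and 1313 without scaling. With library sizes from the nuclear oxidative phosphorylation genes they numbered 743, of which 733 were lower. Members with an unadjusted p under 0.05 numbered 8 without rapamycin 5, 3 without rapamycin 15 or 18, and 1 without the 7 libraries with lung or liver markers. No paired analysis was possible because the groups share no library numbers. ND3 rests on 15 to 63 counts a library, against at least 33809 for each other member.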
